A study of Homo sapiens with 48 samples.

Results

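RELA binding in L3.6pl cells was compared between vehicle and 30 min of TNFα, by the positions of the regions where RELA was called. L3.6pl is an established human cell line of pancreatic ductal adenocarcinoma (PDAC). The series holds 48 chromatin immunoprecipitation samples in 16 conditions, for RELA, RELB, FOSL1 and acetylated histone H3 lysine 27 (H3K27ac), and 6 of these samples enter the comparison. The 3 RELA vehicle samples received PBS for a time that the labels do not give, and the 3 RELA TNFα samples were treated with TNFα for 30 min. No engineered genetic change is stated for either group. Each condition is available as 1 merged peak list, so that the spread between replicates cannot be measured and no test between conditions was made. The peak names of the TNFα list carry the name of the first replicate beside the word merged, so that it is not settled whether all 3 replicates entered it. The depth of the samples is unknown, so that a longer list from deeper sequencing and one from more binding cannot be told apart. The intervals given below are exact (Clopper-Pearson) 95% intervals and cover counting error over regions only.

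The members were all RELA regions on chromosomes 1 to 22 and X in either list. The TNFα list held 11249 such regions and the vehicle list 2971. On every sequence of the assembly they held 11683 and 3214, of 29407 regions summed over the 5 RELA lists of the series. A region was placed in both lists where it shared at least 1 bp with a region of the other list. Of the TNFα regions, 9093 had no vehicle region (80.8%, 80.1 to 81.6%) and 2156 had one. Of the vehicle regions, 793 had no TNFα region (26.7%, 25.1 to 28.3%). Regions in tandem repeats, where a short unit follows itself many times, were set apart: a region belonged there when the 1000 bp around its summit matched themselves at 40% or more of their bases after a shift of up to 400 bp. A run much shorter than this window can fall under the limit, so that regions called outside tandem repeats can still hold one.

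RELA, also called p65, is the subunit of the canonical NF-κB pathway that can activate transcription. In unstimulated cells most of it is held in the cytoplasm by IκB proteins. TNFα, a cytokine of inflammation, signals through the IκB kinase complex, IκB is degraded, and RELA enters the nucleus and binds DNA sequences known as κB sites, often near genes for chemokines and for the inhibitors that shut the pathway off. FOSL1 is a member of the AP-1 family of transcription factors, and H3K27ac marks active promoters and enhancers.

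The sequences at 5 of the 12 strongest promoter regions found only after TNFα show what lay under the RELA summits. Positions are on the plus strand of hg38. Capitals mark matches to the 10-letter NF-κB consensus on either strand and to the AP-1 letters TGAGTCA or TGACTCA. For NFKBIZ the summit lies in an untranslated exon of NXPE3, and 30 bases are shown.
CXCL8, chr4:73740385-73740516: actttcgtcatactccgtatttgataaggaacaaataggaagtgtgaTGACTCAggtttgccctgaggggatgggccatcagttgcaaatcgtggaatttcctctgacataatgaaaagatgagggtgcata
SLC9A8, chr20:49812576-49812694: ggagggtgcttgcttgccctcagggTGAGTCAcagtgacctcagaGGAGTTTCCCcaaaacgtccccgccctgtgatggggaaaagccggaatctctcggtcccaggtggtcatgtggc
CD83, chr6:14117677-14117771: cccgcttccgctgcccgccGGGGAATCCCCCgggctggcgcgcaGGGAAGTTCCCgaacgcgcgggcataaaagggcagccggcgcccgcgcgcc
NFKBIZ, chr3:101827757-101827786: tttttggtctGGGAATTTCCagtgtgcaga
NINJ1, chr9:93134638-93134765: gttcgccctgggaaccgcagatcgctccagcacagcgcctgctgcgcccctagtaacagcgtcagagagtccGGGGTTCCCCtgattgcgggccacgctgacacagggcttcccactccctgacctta

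The CXCL8 region holds an AP-1 match and no full match to the consensus, whereas the other 4 hold at least 1 consensus match. Of the 12, only CXCL8 and C1S lack a consensus match in the 200 bp around the summit, and C1S, not shown, lacks both motifs. Of all 1641 TNFα-only promoter regions, 50.6% held a consensus match there. In the 200 bp around its summit CD83 has 6 consensus matches, counting overlapping matches separately.

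Far from start sites, the strongest region, nearest FGF9, held neither motif in the 200 bp around its summit, whereas the tenth, in an intron of RSRC1, held 2 consensus matches and, outside the stretch shown, 1 AP-1 match. They are shown as an example of each kind: of the 10 strongest regions over 10 kb from a start site, 6 held no consensus match and 5 held neither motif. Of all 4844 TNFα-only regions over 10 kb from a start site, 46.7% held a consensus match.
FGF9 as nearest gene, chr13:22040847-22040947: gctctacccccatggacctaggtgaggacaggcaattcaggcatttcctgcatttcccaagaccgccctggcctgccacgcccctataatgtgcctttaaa
intron of RSRC1, chr3:158421067-158421169: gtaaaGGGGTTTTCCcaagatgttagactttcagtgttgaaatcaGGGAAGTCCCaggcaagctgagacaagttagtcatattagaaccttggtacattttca

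For comparison, the promoters of NFKBIA and TICAM1 were called in both lists, each with 1 consensus match within 10 bp of its summit.
NFKBIA, chr14:35404766-35404876: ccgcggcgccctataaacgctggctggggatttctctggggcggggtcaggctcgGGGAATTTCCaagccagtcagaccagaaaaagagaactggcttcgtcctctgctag
TICAM1, chr19:4831778-4831880: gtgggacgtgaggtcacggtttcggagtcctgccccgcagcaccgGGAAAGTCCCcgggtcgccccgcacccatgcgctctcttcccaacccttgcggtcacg

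Outside tandem repeats, the change between the lists was almost entirely in 1 direction. There, 7946 regions were found only after TNFα, 361 were in both lists and 78 only in vehicle. The regions found only after TNFα were thus 94.8% of the 8385 regions of either list. Of the 439 vehicle regions outside tandem repeats, 82.2% (78.3 to 85.7%) were still called after TNFα. In tandem repeats, 1795 of 2942 TNFα regions were also in the vehicle list (61.0%, 59.2 to 62.8%), against 4.35% (3.92 to 4.81%) outside them.

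**Figure D1:**
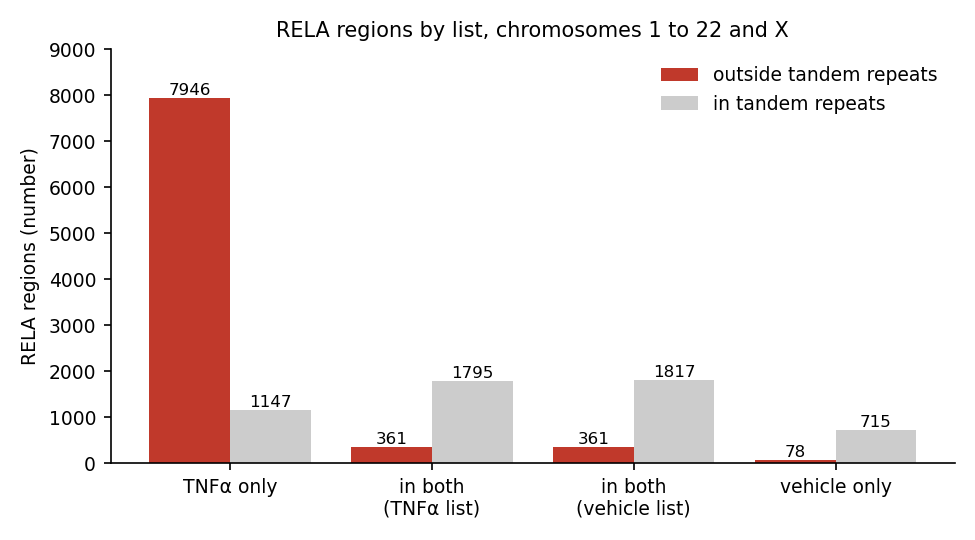
Number of RELA regions found only after 30 min of TNFα, in both lists (counted once in each list) and only in vehicle, outside tandem repeats (red) and in them (grey). The 7946 TNFα-only regions outside repeats are the tallest bar, and the regions in both lists lie mostly in repeats.

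Few pairs lay near the limits of the rule. Among the 364 overlapping pairs of regions outside tandem repeats the median overlap was 148.5 bp, and 3 pairs overlapped by less than 50 bp. Just outside the rule, 4 TNFα-only regions lay within 200 bp of a vehicle region and 25 within 1000 bp, with 98 bp as the smallest gap. At the limit for repeats, 99 TNFα-only regions had a self-match from 0.38 to just under 0.40 and 49 from 0.40 to just under 0.42.

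The fold enrichment in the lists is the authors' ratio of ChIP over input at the summit. Within the TNFα list, regions also called in vehicle had the higher values outside tandem repeats: their median fold enrichment was 14.7, against 6.16 for the TNFα-only regions outside tandem repeats. Of the 361 regions in both lists, 237 (65.7%) were among the strongest 10% of the TNFα list outside repeats, and 62 of the strongest 100 regions were in both lists. TNFα-only regions ranged from 1.79 to 31.3, with 95% of them under 13.8. In tandem repeats, TNFα-only regions had a median of 4.62 and regions in both lists one of 5.83.

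**Figure D2:**
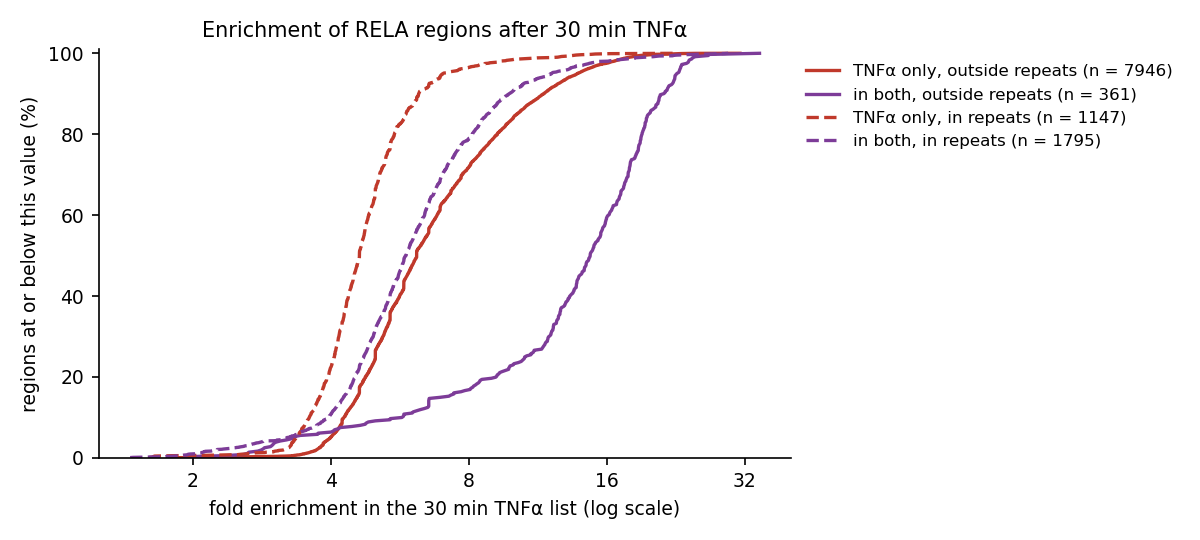
Cumulative share of regions (vertical, percent) by fold enrichment in the 30 min TNFα list (horizontal, log scale), for TNFα-only regions (red) and regions in both lists (purple), outside tandem repeats (solid) and in them (dashed). The solid purple line lies furthest to the right, with a median of 14.7 against 6.16 for the solid red line.

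The fold enrichments of the 2 lists are not scaled to each other, and the pairs in repeats are given beside those outside them. For the 1828 overlapping pairs in repeats the median ratio of fold enrichment, TNFα over vehicle, was 0.963, with 5% of pairs under 0.687 and 5% over 1.30. For the 364 pairs outside repeats the median ratio was 2.11, and 310 pairs (85.2%) were higher in the TNFα list, against 40.5% in repeats. Restricted to the 270 pairs whose summit sequence has a single copy in the assembly, it was 2.23, and 261 pairs were higher in the TNFα list.

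The 8 regions in both lists with the highest fold enrichment after TNFα are given with their vehicle value as a description, since they were chosen on the TNFα value. The region nearest MSTO1, at chr1:155648592-155649016, had a fold enrichment of 26.7 after TNFα and 5.52 in vehicle. In intron 4 of SMAD1, which encodes a transducer of BMP signals, the values were 24.97 and 7.18. At the promoter of TICAM1, the adaptor of Toll-like receptor 3, they were 24.5 and 6.35, with the summit 118 bp before the start site. The region nearest ACBD6 had 24.6 and 12.3, that in exon 12 of FBXO21 24.2 and 5.49, and that in intron 13 of PECAM1, an adhesion molecule, 24.2 and 7.90.

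TNFRSF10B, which encodes a death receptor for TRAIL, had such a region 5798 bp before its start site, with 26.6 after TNFα and 11.4 in vehicle. The region with the highest value of all lies 362341 bp from IRS2, with 34.5 after TNFα and 40.2 in vehicle, and all 5 of the 31-base words tested around its summit are also found in mitochondrial DNA. Of the 361 regions in both lists, 9 had at least 3 such words in mitochondrial DNA, and none of the 7946 TNFα-only regions did.

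Regions found only in vehicle had other sequence. Of the 78 outside tandem repeats, 32 (41.0%, 30.0 to 52.7%) held an unbroken run of 10 or more GA or CT units in the 200 bp around the summit, against 7 of 7946 TNFα-only regions (0.0881%, 0.0354 to 0.181%) and 12 of 361 in both lists (3.32%, 1.73 to 5.73%). Their summit sequence was found more than once in the assembly in 51 cases (65.4%, 53.8 to 75.8%), against 7.99% (7.40 to 8.61%) of TNFα-only regions and 25.5% (21.1 to 30.3%) of regions in both lists. The 5 strongest lay nearest NOS1AP, KCNJ3, AMY1C, LARP4 and TCF7L2, with fold enrichments from 11.0 to 15.4. All 5 were called again in the RELA list of 6 h of TNFα, as were 50.0% (38.5 to 61.5%) of the 78. The strongest is shown for its run of GA units, a tandem repeat too short to reach the self-match limit.
intron of NOS1AP, chr1:162261474-162261574: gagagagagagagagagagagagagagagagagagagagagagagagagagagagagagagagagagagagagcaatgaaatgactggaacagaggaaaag

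A consensus match was found in 1 of the 78 vehicle-only regions (1.28%, 0.0325 to 6.94%), and 24.4% (15.3 to 35.4%) lay near H3K27ac in vehicle.

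Most TNFα-only regions lay outside promoters, and their share at promoters was above that of genome bases and nearer to that of FOSL1 regions without RELA. Of the 7946 regions outside tandem repeats, 1641 summits (20.7%, 19.8 to 21.6%) were within 1 kb of a start site of a protein-coding gene, a zone that takes 1.83% of the bases of the genome. Of 47959 FOSL1 regions without RELA or RELB in any list, 18.6% (18.3 to 18.98%) lay there. A further 18.4% lay at 1 to 10 kb, 29.7% at 10 to 50 kb and 31.3% (30.3 to 32.3%) beyond 50 kb, against 12.2%, 27.9% and 58.0% of bases. The median distance was 20154.5 bp. Introns held 36.9% of the summits (40.6% of bases), sequence between protein-coding genes 37.5% (53.8%), exons of non-coding genes 2.86% (1.45%), untranslated exons 1.32% (1.33%) and coding exons 0.768% (1.04%). Summits fell before and after the nearest start site about equally often, with 49.2% (48.1 to 50.3%) upstream.

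**Figure D3:**
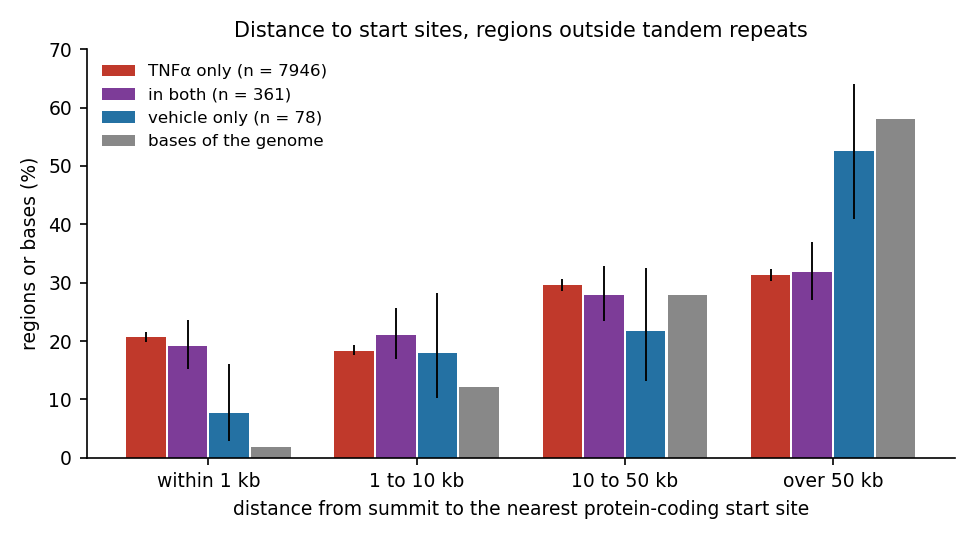
Share of regions outside tandem repeats (vertical, percent, with 95% exact intervals) by distance from the summit to the nearest protein-coding start site, for TNFα-only regions (red), regions in both lists (purple), vehicle-only regions (blue) and bases of the genome (grey). Within 1 kb lie 20.7% of TNFα-only regions and 1.83% of bases.

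The regions in both lists were placed alike, with 19.1% (15.2 to 23.6%) within 1 kb and a median distance of 19924 bp. The difference in the share within 1 kb from the TNFα-only regions was within the intervals. Vehicle-only regions lay further out, with 7.69% (2.88 to 15.99%) within 1 kb and a median of 54722.5 bp. By chromosome, TNFα-only regions were densest on chromosomes 19 (5.32 per Mb) and 17 (5.12 per Mb) and sparsest on X (0.872 per Mb) and 13 (0.953 per Mb), against 2.62 per Mb over all.

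The 12 TNFα-only promoter regions of highest fold enrichment were led by CXCL8, the chemokine that draws neutrophils. Its region at chr4:73740312-73740647 had 24.5, with the summit 75 bp before the start site. SLC9A8, a sodium/proton exchanger, had 22.8, and CYBA, a subunit of the NADPH oxidase, 22.4. CD83, a surface protein of activated immune cells, had 20.2 with its summit 40 bp upstream. All 12 summits were in the RELA list of 6 h of TNFα and near H3K27ac in vehicle, and 9 overlapped a FOSL1 region. Of all 1641 TNFα-only promoter regions, 32.8% were in that list, 92.4% were near H3K27ac in vehicle and 61.2% overlapped FOSL1. Of the strongest of 5 equal groups of TNFα-only regions, 76.7% were in that list.

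Several of the other promoters belong to genes of signalling. TIFA, an adaptor of TRAF proteins, had 19.5, and NFKBIZ, an IκB protein of the nucleus, had 18.9 with a summit that also lies in exon 8 of NXPE3. C1S, a protease of the complement system, had 18.8 and DDR1, a receptor for collagen, 18.7. The rest were CCDC122 with 19.4, EFEMP2, a protein of elastic fibres, NINJ1, which acts in rupture of the plasma membrane, and NDE1, a partner of dynein, the last 3 with 18.5 each. DDR1 lies in the HLA part of chromosome 6, and the alternate sequences of that chromosome, left out here, held 78 regions of the TNFα list and 2 of the vehicle list.

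The 10 strongest TNFα-only regions over 10 kb from a start site had fold enrichments from 22.3 to 31.3. The first, at chr13:22040706-22041063, lies 369824 bp from FGF9, the nearest gene. Others lay in intron 5 of MACROD2 (25.01), in exon 10 of CYP2F1 (23.3) and in intron 6 of RSRC1 (22.3), and the rest nearest NDUFV2 (24.1), MOBP (23.6), TCIM, SPINK6, VXN and EMC2 (22.4 to 22.7). All 10 had a RELA region at 6 h of TNFα and a summit sequence with a single copy, and 9 overlapped FOSL1. At 3 of them, nearest MOBP, CYP2F1 and MLF1, H3K27ac was absent within 500 bp of the summit in vehicle and present at 30 min of TNFα. A nearest gene is a matter of distance and not a target.

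Stronger TNFα-only regions carried the consensus more often. When the 7946 regions were ordered by fold enrichment and divided into 5 equal groups, a match within the 200 bp around the summit was found in 29.1% (26.9 to 31.4%) of the weakest group, with fold enrichments up to 4.76, and in 60.2% (57.7 to 62.6%) of the strongest, from 9.23 upwards. Over all it was 48.7% (47.6 to 49.8%). In 29105 windows of the same length on a fixed grid it was 2.54%, and in the 34961 RefSeq promoters of 300 bp 11.3%. The share for regions in both lists was 66.8% (61.6 to 71.6%).

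**Figure D4:**
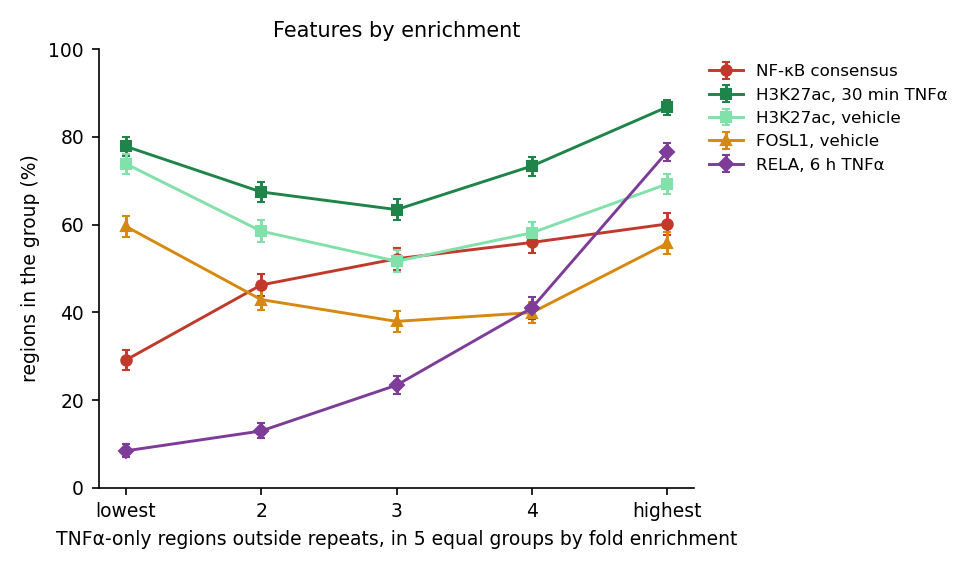
Share of TNFα-only regions outside tandem repeats (vertical, percent, with 95% exact intervals) that hold an NF-κB consensus, lie near H3K27ac, or overlap FOSL1 in vehicle or RELA at 6 h of TNFα, in 5 equal groups from lowest to highest fold enrichment. RELA at 6 h goes from 8.43% to 76.7% and the consensus from 29.1% to 60.2%, while FOSL1 and H3K27ac in vehicle are lowest in the middle group.

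The matches sat at the summit. Within 20 bp of it, consensus matches were 29.6 times as dense per base as at 400 to 500 bp in TNFα-only regions and 50.8 times in regions in both lists, against 1.01 times at the FOSL1 regions without RELA or RELB. AP-1 matches were 5.06, 12.1 and 39.8 times as dense in the same 3 sets. A match describes letters and not a bound site.

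**Figure D5:**
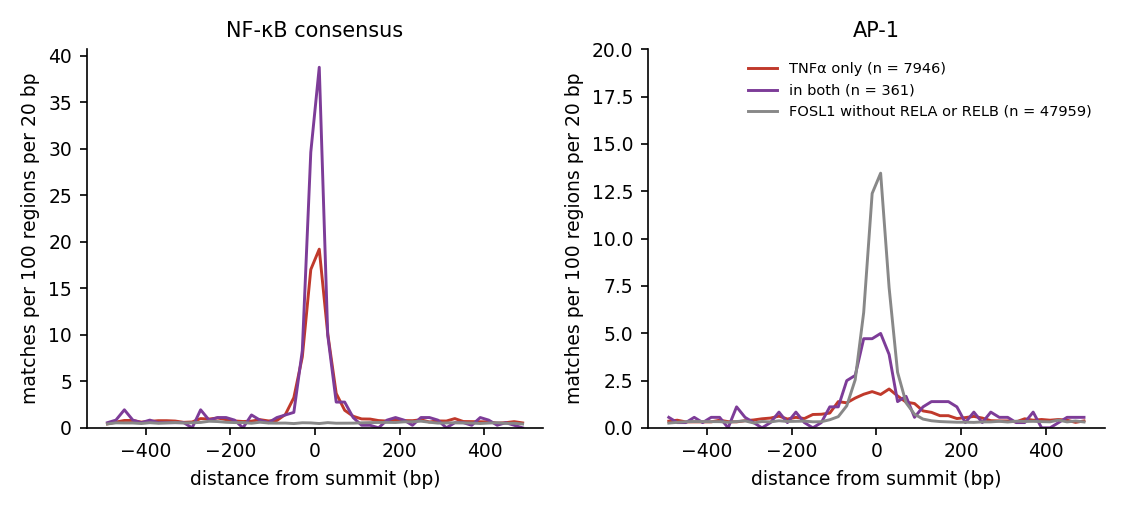
Matches per 100 regions in steps of 20 bp (vertical) by distance from the summit (horizontal, bp), for the NF-κB consensus (left) and AP-1 (right), in TNFα-only regions (red), regions in both lists (purple) and FOSL1 regions without RELA or RELB (grey), all outside tandem repeats. Consensus matches peak at the RELA summits, and AP-1 matches peak most at the FOSL1 summits.

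With strands joined, 98 of the 100 possible 10-letter forms of the consensus were found. The most frequent, GGAATTTCCC (GGGAAATTCC on the other strand), was in 507 regions (6.38%) and GGAAATTCCC in 469 (5.90%). GGGGAATTCC was in 329 TNFα-only regions (4.14%) and in 52 of the 361 regions in both lists (14.4%). The TEAD letters ACATTCC, on either strand, were in 5.17% (4.70 to 5.68%) of TNFα-only regions and in 3.38% of the grid windows, and AP-1 letters in 14.4% (13.7 to 15.2%) and 3.06%.

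TNFα-only regions with and without FOSL1 in vehicle differed in sequence. Of the 7946 regions, 3754 (47.2%, 46.1 to 48.3%) overlapped a FOSL1 region, against 84.5% (80.3 to 88.1%) of regions in both lists. Those with FOSL1 held the consensus in 34.2% (32.7 to 35.7%) and AP-1 in 22.9% (21.6 to 24.3%). Those without held the consensus in 61.8% (60.3 to 63.2%) and AP-1 in 6.85% (6.10 to 7.65%). Their median fold enrichments were close, 6.07 and 6.16. Of the regions without FOSL1, 35.3% (33.9 to 36.8%) were near H3K27ac in vehicle, against 92.5% (91.6 to 93.3%) with it.

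FOSL1 and H3K27ac in vehicle gave 4 groups of TNFα-only regions. Both FOSL1 and H3K27ac were present at 3471, H3K27ac alone at 1480, FOSL1 alone at 283 and neither at 2712. The consensus share was 33.1% (31.5 to 34.7%) with both, 57.0% (54.5 to 59.6%) with H3K27ac alone, 48.1% (42.1 to 54.0%) with FOSL1 alone and 64.3% (62.5 to 66.1%) with neither. Promoters made up 28.5% of the first group and 4.06% of the last. Regions with neither held the consensus most often.

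H3K27ac peaks present after 30 min of TNFα and absent in vehicle lay at many TNFα-only regions. Of the 2995 without a peak within 500 bp in vehicle, 987 had one after TNFα (33.0%, 31.3 to 34.7%), while 74 of 4951 lost theirs (1.49%, 1.18 to 1.87%). At the FOSL1 regions without RELA or RELB, 5.55% (5.19 to 5.93%) of those without a peak gained one and 18.95% (18.5 to 19.4%) of those with a peak lost it. Other RELA regions were closer to the TNFα-only ones: a peak was gained at 17 of 65 regions in both lists (26.2%, 16.03 to 38.5%), whose interval holds the 33.0%. In tandem repeats it was gained at 26.2% (23.2 to 29.4%) of 801 TNFα-only, 41.6% (37.7 to 45.6%) of 627 shared and 23.9% (20.3 to 27.8%) of 531 vehicle-only regions without one in vehicle. Outside repeats no vehicle-only region gained one (0 of 59, at most 6.06%). Among TNFα-only regions the share that gained a peak was 20.7% (16.9 to 24.9%) in the weakest group and 59.0% (54.5 to 63.4%) in the strongest. It was 49.8% (43.8 to 55.8%) where FOSL1 was present in vehicle and 31.2% (29.5 to 33.0%) where it was not. With and without the consensus it was 31.1% (29.01 to 33.2%) and 36.1% (33.3 to 39.0%). These are lists with 1 threshold each, and a peak that appears may have been just under it.

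Of the TNFα-only regions, 2582 (32.5%, 31.5 to 33.5%) were also in the RELA list of 6 h of TNFα. The share was 8.43% (7.11 to 9.90%) in the weakest and 76.7% (74.5 to 78.7%) in the strongest group. Regions called at 6 h had a median fold enrichment of 8.96 at 30 min and held the consensus in 64.1% (62.3 to 66.0%), against 5.50 and 41.3% (40.01 to 42.7%) for the others. Among regions in both lists 97.2% (94.96 to 98.7%) were called at 6 h.

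After TWEAK, a cytokine that can activate the non-canonical pathway, the lists held few of the TNFα-only regions. RELA was called at 4.48% (4.04 to 4.96%) of them at 30 min and at 1.47% (1.22 to 1.76%) at 6 h, against 80.6% (76.1 to 84.6%) and 67.3% (62.2 to 72.1%) of the regions in both lists. RELB, the subunit of that pathway, was called at 12.6% (11.8 to 13.3%) of TNFα-only regions after 6 h of TWEAK and at 0.365% (0.245 to 0.524%) after 30 min of TNFα. At 6 h of TNFα it was called at 2.08% (1.77 to 2.41%) of them, and in vehicle at 0.868% (0.676 to 1.10%). For regions in both lists these shares were, in the same order, 86.1% (82.2 to 89.5%), 18.0% (14.2 to 22.4%), 47.1% (41.8 to 52.4%) and 38.2% (33.2 to 43.5%). Among TNFα-only regions the shares after TWEAK depended on fold enrichment. RELA at 30 min was called at 0.314% of the weakest group and 19.9% of the strongest. For RELB at 6 h these were 3.65% and 31.3%. The 2 classes were not matched for fold enrichment, with medians of 6.16 for TNFα-only regions and 14.7 for regions in both lists.

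The genes of the pathway and of its known responses were counted on lists of 123 genes. A TNFα-only region outside tandem repeats lay within 50 kb of a start site for 103 of them (83.7%, 76.0 to 89.8%), against 38.4% of all 19609 protein-coding genes. Within 1 kb it was 44 (35.8%, 27.3 to 44.9%), against 8.88%. A region in both lists was within 50 kb of 30 (24.4%, 17.1 to 33.0%), against 2.80%. The median number of TNFα-only regions within 50 kb was 2 for the listed genes and 0 for all genes. Of 20 liver and neuron markers, taken as a contrast, 3 had such a region (15.0%, 3.21 to 37.9%). Neighbouring genes can share a region, and the lists are no random draw from the genome. They were chosen with earlier results of these data known, so that the difference from all genes describes the lists and is no test.

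The 5 NF-κB subunit genes lay near regions already called in vehicle. All 5 had a region in both lists within 50 kb (100%, 47.8 to 100%, against 2.80% of all genes), and 4 of the 5 had one within 1 kb. A TNFα-only region lay within 50 kb of 3 as well (60.0%, 14.7 to 94.7%), an interval that holds the 38.4% of all genes. At NFKB1, which encodes p105 and p50, the fold enrichment was 23.1 after TNFα and 8.71 in vehicle, 28 bp from the start site. At RELB it was 19.4 and 8.64, at NFKB2 14.4 and 11.3, and at REL 13.2 and 6.28.

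Among the IκB proteins and feedback regulators are inhibitors that restrain the pathway. Of the 6 IκB genes, all 6 had a TNFα-only region within 50 kb (100%, 54.1 to 100%, against 38.4% of all genes). A region in both lists lay within 50 kb of 5 (83.3%, 35.9 to 99.6%, against 2.80% of all genes), and for 4 of these 5 within 1 kb. At the promoter of NFKBIA, which encodes IκBα, the values were 9.77 after TNFα and 4.96 in vehicle, and at NFKBIB 18.6 and 6.72. NFKBIZ had 2 promoter regions, of which the one shown above was TNFα-only with 18.9 and the other was in both lists with 21.5 and 5.81. Of 10 feedback regulators, 7 had a TNFα-only region within 50 kb (95% interval 34.8 to 93.3%). That interval holds the 38.4% of all genes. The deubiquitinase TNFAIP3, also called A20, had a promoter region in both lists with 18.8 and 13.9, and a TNFα-only region of 15.9 in its intron 2, 5946 bp from the start site. At CYLD, another deubiquitinase, the promoter values were 16.5 and 9.26.

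Among 19 genes of TNF receptor signalling, 13 had a TNFα-only region within 50 kb (68.4%, 43.4 to 87.4%), against 38.4% of all genes. Within 1 kb it was 3 (15.8%, 3.38 to 39.6%), an interval that holds the 8.88% of all genes. The strongest were near TNFRSF12A, the TWEAK receptor (17.6, at 44947 bp and at the start of IL32), and IKBKG, a subunit of the IκB kinase (17.0, at 6246 bp). BIRC3, a ubiquitin ligase of the receptor complex, had its promoter region in both lists, with 13.5 and 10.6. RIPK1, CHUK, MAP3K7, MAP3K14, TRAF5 and TAB3 had no TNFα-only region within 50 kb.

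Chemokine genes lay mostly near TNFα-only regions. Of 14, 13 had a TNFα-only region within 50 kb, 7 of them within 1 kb, and 2 had a region in both lists. Beside CXCL8 these included CXCL1 (17.3, at 89 bp), CXCL5 (16.6, at 80 bp), CCL20 (15.0, at 58 bp), which draws lymphocytes and dendritic cells, and CXCL10 (14.2, at 134 bp), which draws activated T cells. CXCL3 had a promoter region in both lists (15.9 after TNFα and 5.51 in vehicle). Of 16 cytokines, 14 had a TNFα-only region within 50 kb (87.5%, 61.7 to 98.4%), against 38.4% of all genes. Among the 14 were CSF1, the growth factor of macrophages (18.7, at 18131 bp), IL32 (17.6, at 0 bp) and IL1A and IL1B, which share one (12.4). IL6 and IL36G had none. TNF, LTA and LTB shared 1 region of 8.46.

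Of 11 genes of survival and apoptosis, 10 had a TNFα-only region within 50 kb, led by BID (18.0), which links death receptors to mitochondria, and CFLAR, an inhibitor of caspase-8 activation with 3 regions within 1 kb and its strongest, 10.8, at 49996 bp. Of 18 adhesion and matrix genes, 15 had one, among them PLAU (15.2), the urokinase, and MMP1, a collagenase (11.4). VCAM1 and SELE had none. Of 14 response enzymes and receptors, 12 had one and 9 within 1 kb, led by CD83 (20.2), EFNA1, a ligand of Eph receptors (18.9), IFNGR2, a chain of the interferon-γ receptor (17.7), and SDC4, a heparan sulphate proteoglycan (17.0). TLR2 and HLA-B had none, HLA-B on the main sequence of chromosome 6 alone, since its alternate sequences were left out. All 10 AP-1 genes had one, led by BATF (19.4, at 38501 bp) and FOSL1 (18.5, at 26653 bp, in the promoter region of EFEMP2). In the order given, the shares within 50 kb were 90.9% (58.7 to 99.8%), 83.3% (58.6 to 96.4%), 85.7% (57.2 to 98.2%) and 100% (69.2 to 100%). Over all genes it was 38.4%. For the response enzymes and receptors the share within 1 kb was 64.3% (35.1 to 87.2%), against 8.88% of all genes.

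Several genes were the nearest gene of many regions, a count that also depends on how far away the next gene lies. By nearest start site, TBL1XR1, a part of corepressor complexes, had 14 TNFα-only regions, SPIDR, a DNA repair scaffold, 13, NEDD9, an adhesion scaffold, and ZFP36L2, which destabilises mRNA, 11 each, and MYEOV, SMAD3, which transduces TGF-β signals, and TNS3 10 each. Most of these regions were far from the start site. The median distance was 232941 bp for TBL1XR1, 139956 bp for ZFP36L2, 134463 bp for SPIDR and 104928 bp for TNS3. It was 40333 bp for NEDD9, 22891 bp for MYEOV and 8724.5 bp for SMAD3. The regions nearest SMAD3 had the highest median fold enrichment of these 7 genes, 9.01, and 7 of the 10 were called at 6 h. EXT1 had 9 and tied with other genes. The 2 highest counts were at repeated sequence: all 20 regions nearest TPTE, at least 2049960 bp away, and 14 of 16 nearest PLS3 have a summit sequence with more than 1 copy.

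Over the genome, 641 groups of 2 or more TNFα-only regions lay with successive summits no more than 10 kb apart, and these hold 1453 regions (18.3%). The largest group held 14 regions over 44.1 kb, 11 of them nearest PLS3. As given above, 14 of the 16 regions nearest PLS3 have a summit sequence with more than 1 copy. At PLEC, 7 regions lay over 18.3 kb. Other groups were 6 regions over 37.0 kb at EPHA2, an Eph receptor, and 5 over 10.1 kb at KDM6B. KDM6B removes methyl groups from histone H3, and its group had a median fold enrichment of 10.1. BCL9L, a cofactor of β-catenin, had 6 over 16.2 kb.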

How the data were processed

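Chromatin immunoprecipitation with sequencing (mouse antibody against RELA, protein G beads) was done in L3.6pl cells, 3 samples per condition. The authors aligned reads to hg38 with Bowtie2 2.5.0, handled them with SAMtools 1.18 and deepTools 3.3.2, and called peaks against input with MACS2 (version not given in the sources used here) on merged replicates. The deposited lists give a fold enrichment, a ratio of ChIP over input, a −log10 q, and the summit as an offset in bp. Their −log10 p columns and the H3K27ac TWEAK lists were not used.

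Regions on 23 chromosomes were overlapped (at least 1 bp; bedtools 2.31.1 gave the same 2156 and 2178), annotated from their summits with GENCODE 44, and searched for exact motif matches in Python 3.11.15 (numpy 2.4.6, pandas 2.3.3, scipy 1.17.1, pysam 0.24.0, matplotlib 3.10.9). H3K27ac was near a region when a peak lay within 500 bp of the summit. Copies were exact occurrences of 31-base words around the summit. Functions were checked on simulated data. Named are the 12 promoter and 10 distal TNFα-only regions, 8 regions in both lists and 5 vehicle-only regions of highest fold enrichment, the 10 genes nearest the most TNFα-only regions, and members of the gene lists, of which 1 is counted but its values are not reported here. Members and lists were chosen with earlier results of these data known. No p-value was computed, since each condition is 1 list. Alternatives changed the peaks used, the overlap, the repeat limit and the distances.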

Additional observations from a re-analysis of the deposited data

Results flagged for a closer look

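The RELA list of 30 min of TNFα held 235 regions on alternate sequences of the assembly, which were outside the comparison, against 28 in the vehicle list. These were 2.01% (1.76 to 2.28%) of 11683 regions and 0.871% (0.580 to 1.26%) of 3214. Of them, 78 and 2 were on alternate sequences of chromosome 6. They are given because the comparison did not use them and their number was above that in vehicle, as was the number of regions outside tandem repeats on the chromosomes compared (8307 against 439). The cause was not tested.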

How the results depend on the processing

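Of 74 alternative values for 9 results, 45 stayed within the interval of the reported value or within 1.5 times the reported count, and 29 did not. The cause was not tested. With peaks of a −log10 q of at least 3, the consensus share of TNFα-only regions was 50.0%. Limited to peaks enriched 5-fold or more, the promoter share was 18.98%, FOSL1 43.8%, H3K27ac 59.0% and the consensus 54.7%. With the 2000 strongest peaks of each list, 1548 regions were TNFα-only, 1526 of them outside tandem repeats, 74.4% of vehicle regions were in the TNFα list, and the shares were 21.9% for promoters, 57.1% for FOSL1, 70.8% for H3K27ac, 60.8% for the consensus and 39.8% for the listed genes. A self-match limit of 0.5 gave 178 vehicle-only regions and 75.5% of vehicle regions in the TNFα list. With tandem repeats kept, that overlap was 73.3%, promoters 18.5%, FOSL1 49.4%, H3K27ac 58.3% and the consensus 43.5%. Promoters took 26.2% within 2.5 kb and 26.7% with start sites of all genes. H3K27ac overlapping the region itself gave 53.9%, the consensus within 100 bp 43.5%, listed genes within 10 kb 59.3% and listed genes as the nearest gene 74.0%. Single-copy regions alone, an alternative chosen after seeing the data, gave 33 vehicle-only regions, an overlap of 88.9% and a promoter share of 21.7%.

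No paired analysis was possible because each condition is 1 merged list. For the same reason leaving out a replicate was not run. Depth is unknown, so that the number of TNFα-only regions cannot be separated from the depth of either list.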
